A study of Mus musculus with 6 samples.

Results

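The 10 genes described here encode transcription factors that establish or hold a mesenchymal state: the basic helix-loop-helix (bHLH) factors Twist1, Twist2 and Tcf21, the zinc finger repressors Snai1, Snai2, Zeb1 and Zeb2, the homeobox factor Prrx1 and the forkhead factors Foxf1 and Foxf2. They are 10 of the 23462 named genes on the array, and 14 probes measure them. Twist2 was selected on its measured signal, which was far lower in Islr knockout colon, so its values are a description and no test is drawn from them. The other 9 are relatives of Twist2 or partners in the same programme, brought together with earlier results of these data known.

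The animals were male, 3 controls and 3 Islr knockouts, and the colon of each was measured on 1 single-colour Agilent array. Islr is the gene of a leucine-rich repeat protein secreted by stromal cells. Both groups had received 3.5% dextran sulfate sodium, which injures the colonic epithelium, in drinking water for 5 days and had then recovered for 1 day, as the sample source states; another field of the labels says that nothing was given. The control group is described by that word alone and by WT in the sample titles; age, strain, Islr allele and any Cre driver are not given in the sources used here. Cre inserted into the Twist2 gene (Dermo1-Cre) is a common tool for deleting genes in mesenchyme, and whether either group carried such an allele is likewise not given. Every control array lay in row 1 of the slide and every knockout array in row 2, so row and genotype cannot be told apart. The array's 75th percentile ran from 6353 to 7110.5 intensity units in controls and from 4910.5 to 5820 in knockouts, and all values below are log2 signals relative to it, so 0 means the 75th percentile of that array. In whole tissue, fewer mesenchymal cells and less of a transcript per cell cannot be told apart.

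Twist, Snail and Zeb proteins are best known for epithelial-mesenchymal transition (EMT), in which they repress junction genes such as Cdh1 and favour matrix and protease genes. In an adult gut they are made mainly by fibroblasts and other stromal cells. Twist1 and Twist2 pair with E proteins on E-boxes, the letters CANNTG, and Id proteins withdraw those partners. Snail and Zeb zinc fingers prefer the E-box CAGGTG, read as CACCTG on the other strand. Foxf1 and Foxf2 are hedgehog-responsive factors of gut mesenchyme, Tcf21 marks fibroblast precursors in several organs, and Prrx1 marks mesenchymal progenitors.

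Because the bHLH, Snail and Zeb factors bind E-boxes and all 10 genes read lower in the knockout, the 250 bases before the transcription start were searched for CANNTG on both strands. From the RefSeq promoter table of build GRCm38.p6, 10 entries for 7 of the 10 genes were used, and none for Zeb1, Snai2 or Foxf1. The Twist pair is shown together with the only genes among the 7 whose stretch held a match, and capitals mark the E-box.
Twist2 (chr1:91801211-91801460, plus strand): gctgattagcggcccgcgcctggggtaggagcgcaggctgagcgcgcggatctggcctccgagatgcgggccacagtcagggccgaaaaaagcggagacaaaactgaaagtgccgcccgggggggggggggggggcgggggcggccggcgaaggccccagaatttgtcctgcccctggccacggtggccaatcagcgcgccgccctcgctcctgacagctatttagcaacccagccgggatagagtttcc
Twist1 (chr12:33957421-33957670, plus strand): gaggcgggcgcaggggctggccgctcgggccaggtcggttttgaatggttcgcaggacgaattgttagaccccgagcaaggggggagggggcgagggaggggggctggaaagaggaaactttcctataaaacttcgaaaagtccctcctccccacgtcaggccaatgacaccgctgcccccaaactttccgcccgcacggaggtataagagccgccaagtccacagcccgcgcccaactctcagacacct
Snai1 (chr2:167537945-167538194, plus strand): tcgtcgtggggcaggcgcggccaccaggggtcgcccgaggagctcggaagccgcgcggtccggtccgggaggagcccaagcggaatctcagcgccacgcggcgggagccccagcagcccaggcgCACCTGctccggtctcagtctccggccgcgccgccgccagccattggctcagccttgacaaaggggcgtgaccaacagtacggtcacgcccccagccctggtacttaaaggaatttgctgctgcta
Foxf2 (chr13:31625566-31625815, plus strand): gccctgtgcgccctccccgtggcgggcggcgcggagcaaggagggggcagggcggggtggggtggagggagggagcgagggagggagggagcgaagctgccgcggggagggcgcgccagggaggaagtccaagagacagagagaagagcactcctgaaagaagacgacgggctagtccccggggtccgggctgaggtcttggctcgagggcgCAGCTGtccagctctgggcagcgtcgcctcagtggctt
An E-box was found before Snai1, as CACCTG, and before Foxf2, as CAGCTG, and in 2 of the 10 entries in all. Over all 32851 promoter entries 66.2% of such stretches held CANNTG and 17.2% held CAGGTG or CACCTG, a subset of the former. The stretches before Twist2 and Twist1 held no CANNTG, which says only that these letters are not in that window.

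Islr itself was read first as a check of the labels. Its log2 signal was 1.57, 1.24 and 1.21 in controls 1, 2 and 3 and -1.40, -0.93 and -1.31 in knockouts 1, 2 and 3. No knockout reached the lowest control. The spot of control 1 was marked as an outlier by the scanner software and left out of the fit, where the difference was -2.44 (SE 0.21, adjusted p 0.0171, limma over all tested probes). The call was lost without knockout replicate 3 (adjusted p 0.0580). Each of the 10 colon epithelium markers examined had a probe well above background on at least 1 array.

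All 10 transcription factors read lower in knockout colon. At 1 probe a gene the median log2 difference was -1.10, against 0.01 over all 16451 genes tested, of which 48.8% read lower. With outlier spots kept, every knockout lay below every control at 14 of 14 probes; the same held at 17.8% of all tested probes. Of the 9 genes other than Twist2, 1 passed a 5% false discovery rate (Snai2) and 8 did not. Over all genes tested, 2.47% passed in that direction and 1.35% in the other, and over all probes 2.42% passed as lower. Nothing is read from the comparison, because the genes were chosen with this contrast in view. At each of the 14 probes knockout replicate 1 was the lowest of the 6 arrays. That array also had the lowest 75th percentile (4910.5), the fewest spots well above background (69.4%) and the most outlier spots (16%). Whether this bears on its low values was not tested.

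**Figure D1:**
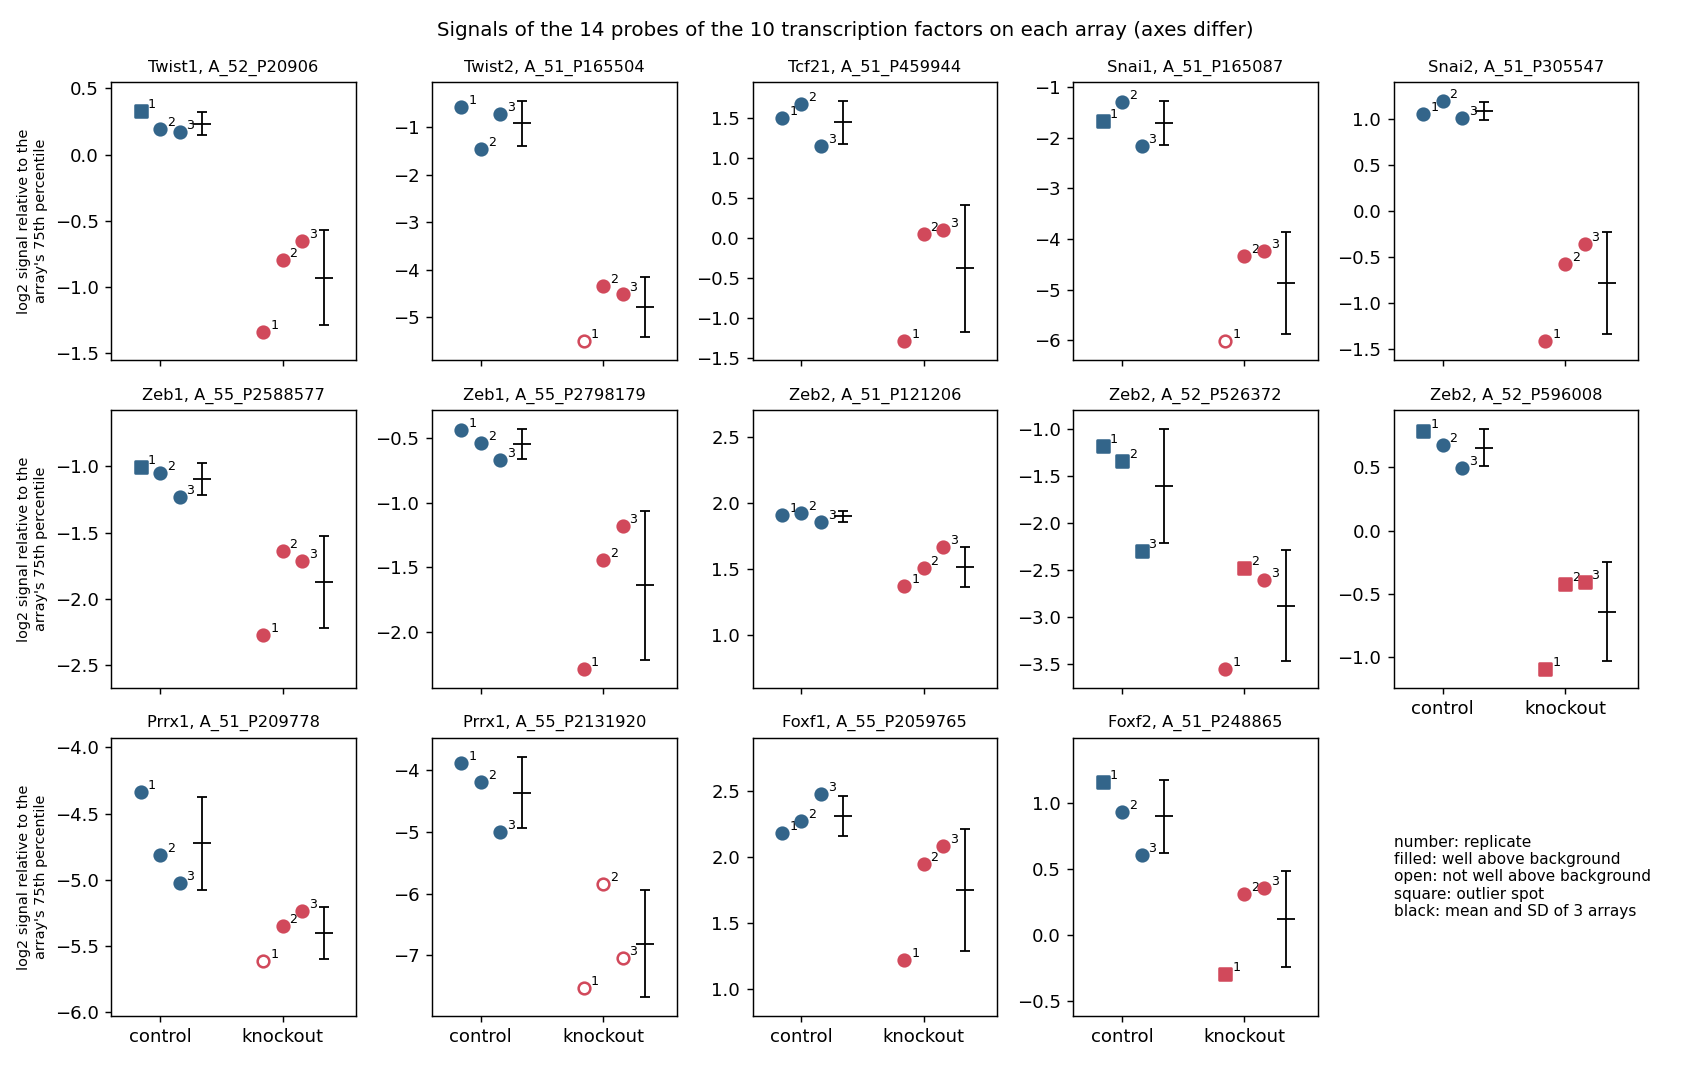
Log2 signal, 0 being the 75th percentile of the array (vertical axes, which differ between panels), for each of 14 probes in the 3 control (blue) and 3 knockout (red) arrays. Black marks give the mean and SD of 3 arrays, open points are not well above background and squares are outlier spots; all knockout points lie below all control points in every panel, and knockout replicate 1 is the lowest.

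Twist2, a bHLH repressor of mesenchymal and dermal progenitors, showed the largest difference of the 10. Its only probe (A_51_P165504) read 4300.4, 2604 and 3955 intensity units in controls 1, 2 and 3 and 108, 288 and 254 in knockouts 1, 2 and 3. On the log2 scale these are -0.56, -1.45 and -0.73 against -5.50, -4.34 and -4.50. The highest knockout lay 2.89 below the lowest control, and knockout 1 was not well above background. The difference was -3.87 (SE 0.38, 95% interval -4.77 to -2.97), a 14.6-fold lower signal, and its size is uncertain because of the dim knockout spot. With 1 array left out at a time it ran from -4.14 to -3.51.

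Twist1, the close paralogue that drives mesoderm and cranial mesenchyme, differed less. It read 0.33, 0.19 and 0.17 in controls and -1.34, -0.80 and -0.65 in knockouts 1, 2 and 3. The groups were separate, and the controls lay close together. The difference was -1.11 (SE 0.25), or 2.16-fold, with control 1 left out as an outlier spot, and it did not pass (adjusted p 0.0679). Its 95% interval was -1.74 to -0.49. Of the 7 alternatives that use all 6 arrays, 5 called it; with an array left out no fit did.

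Tcf21, a bHLH factor of fibroblast lineages, read 1.50, 1.67 and 1.15 in controls and -1.29, 0.05 and 0.09 in knockouts. Knockouts 2 and 3 lay close together and knockout 1 well below them. The difference was -1.82 (SE 0.39, 95% interval -2.76 to -0.88), or 3.54-fold, with an adjusted p of 0.0545. It too was called in 5 of the 7 alternatives on all arrays and in none with an array left out.

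Among the zinc finger repressors Snai2 passed the test. Snai2 (Slug), which sustains migratory mesenchyme and neural crest, read 1.06, 1.19 and 1.00 in controls and -1.42, -0.57 and -0.36 in knockouts. Controls lay close together and every knockout lay far below them. Its difference was -1.87 (SE 0.29, 95% interval -2.55 to -1.19), or 3.65-fold lower, and limma gave an adjusted p of 0.0326. The call was lost without control replicate 2 (adjusted p 0.0928), control replicate 3 (0.0862) or knockout replicate 3 (0.0633) and with no filter on dim probes (0.0509), while the size stayed between -2.08 and -1.55.

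Snai1 (Snail), the first-described repressor of Cdh1, read -1.67, -1.30 and -2.17 in controls and -6.02, -4.34 and -4.23 in knockouts. Both groups were spread widely, yet the highest knockout lay 2.06 below the lowest control. Knockout 1 was not well above background, and the spot of control 1 was an outlier left out of the fit. The difference was -3.13 (SE 0.61, 95% interval -4.65 to -1.61), or 8.74-fold, and it did not pass (adjusted p 0.0535). With outlier spots kept it was -3.15. Of the 7 alternatives on all arrays 6 called it, and of the 4 possible fits with an array left out 1 did. Among the genes printed above, Snai1 is the one whose promoter stretch held CACCTG.

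Zeb1, a zinc finger and homeodomain repressor of epithelial genes, had a pair of tested probes. The brighter one (A_55_P2798179) read -0.43, -0.54 and -0.67 in controls and -2.29, -1.45 and -1.18 in knockouts, a difference of -1.09 (SE 0.30, adjusted p 0.0802). The other (A_55_P2588577) differed by -0.74 (SE 0.25, adjusted p 0.139). Neither passed in this fit, the brighter one passed in 2 of the 7 alternatives on all arrays and the other in 1, and at both probes the groups did not overlap.

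Zeb2, which also represses Cdh1 and is made by macrophages and glia as well as by fibroblasts, had 3 probes that gave different sizes. The brightest (A_51_P121206) read 1.91, 1.93 and 1.85 in controls and 1.37, 1.50 and 1.66 in knockouts, a difference of -0.38 (SE 0.15, adjusted p 0.161). A second (A_52_P596008) read 0.79, 0.68 and 0.50 against -1.10, -0.42 and -0.41, a mean difference of -1.30 with outlier spots kept. The third (A_52_P526372) read -1.18, -1.34 and -2.30 against -3.55, -2.48 and -2.61, a mean difference of -1.27 with outlier spots kept. The latter probes were not tested, because outlier marks left fewer than 2 usable values in a group. All 3 were lower in knockouts, and at the third the gap between the groups was 0.17.

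Prrx1, a paired-related homeobox factor of limb and gut mesenchyme, was dim in both groups, and its probes disagreed in size. Probe A_51_P209778 read -4.34, -4.82 and -5.02 in controls and -5.62, -5.35 and -5.24 in knockouts, a difference of -0.68 (SE 0.22, adjusted p 0.115). Probe A_55_P2131920 read -3.89, -4.20 and -5.01 in controls, whereas none of its knockout spots was well above background. There only a bound holds, at least 2.19-fold lower. The fit called this probe (adjusted p 0.0470, limma), but the call rests on knockout spots at background and is not used as support. That call was lost without any of the arrays except knockout replicate 2 (adjusted p up to 0.130), with normexp background correction (0.0519) and with no filter on dim probes (0.0740).

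Neither gene of the forkhead pair passed, in this fit or in any alternative. Foxf1, which patterns splanchnic mesoderm and gut smooth muscle, read 2.18, 2.27 and 2.48 in controls and 1.22, 1.95 and 2.08 in knockouts. Knockouts 2 and 3 lay just under the controls, with a gap of 0.10, and knockout 1 apart. The difference was -0.56 (SE 0.25, 95% interval -1.17 to 0.05, adjusted p 0.216). Foxf2, its partner in intestinal fibroblasts and a brake on stromal Wnt signals, read 1.16, 0.93 and 0.61 in controls and -0.29, 0.31 and 0.35 in knockouts. Outlier spots of control 1 and knockout 1 were left out of the fit, which gave -0.44 (SE 0.22, adjusted p 0.284). With those spots kept the difference was -0.77, so the size depends on 1 array in each group.

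**Figure D2:**
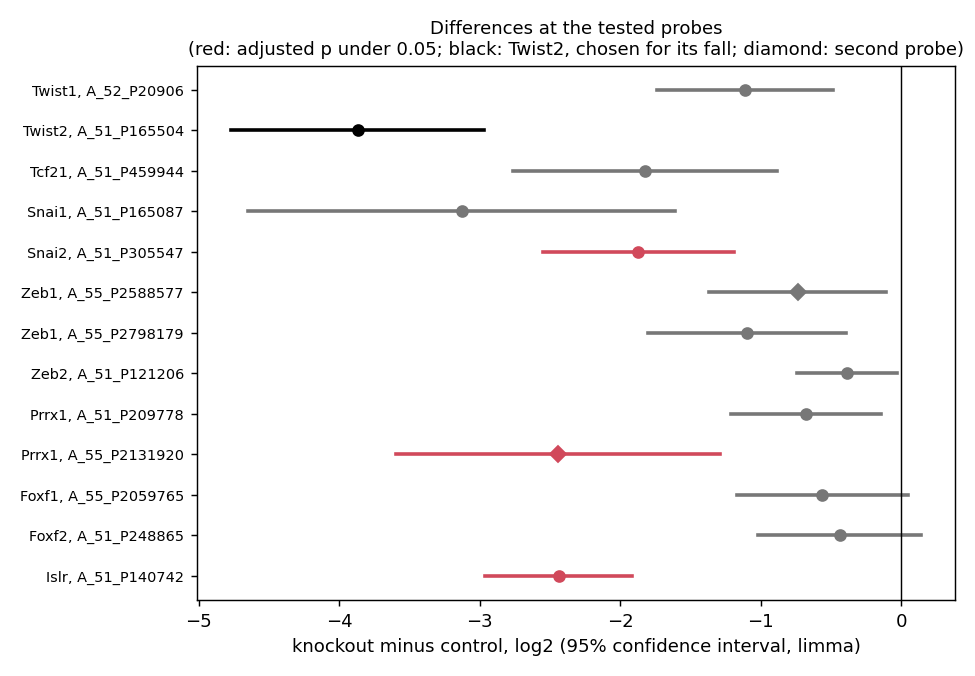
Knockout minus control on the log2 scale (horizontal axis) with 95% confidence intervals from limma at the 12 tested probes of the 10 factors and at Islr. At Prrx1 probe A_55_P2131920 no knockout spot was well above background, so only a bound holds. Red marks an adjusted p under 0.05 and black marks Twist2, which was chosen for its fall. Every estimate lies below 0, and the intervals of Foxf1 and Foxf2 reach 0. The intervals are not adjusted for the number of probes tested. The share of all tested probes with an interval clear of 0 was not counted, so nothing is read from the other intervals.

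Fibroblast genes were lower too, so each factor was also read against them on the same array. All 15 of 15 tested genes of the fibroblast list were lower, 0 passed the test, and their median difference was -0.54 (-0.26, with 14 of 15 lower, without knockout replicate 1). Their summed signal, in units of the array's 75th percentile, was 60.2 to 67.1 in controls and 39.2 to 51.7 in knockouts. After subtracting the mean log2 signal of these 15 genes and setting the control mean to 0, Twist2 stood at -3.59, -3.10 and -3.33 in knockouts 1, 2 and 3. Snai1 stood at -3.30, -2.30 and -2.25. Snai2 stood at -1.50, -1.33 and -1.18, and Tcf21 at -1.73, -1.06 and -1.08. Knockouts still lay below all controls for these 4 genes, for Twist1 (mean -0.63) and for Zeb1 (-0.56). The share of all genes separated in this way after the subtraction was not counted, so nothing is read from the number. Relative to the fibroblast genes the groups overlapped for Zeb2 (mean 0.15), Prrx1 (-0.15), Foxf1 (-0.028) and Foxf2 (-0.24). Knockout replicate 1, the lowest array for every factor, was also the one with the lowest fibroblast mean (0.11 against 0.79 and 0.85 in the other knockouts). That mean includes Has1, which read -6.50 in knockout 1 and -2.24 and -2.26 in knockouts 2 and 3. Its spots were well above background on 2 knockout arrays.

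Of the partners and inhibitors of the bHLH factors, Id3 passed the test. Among 7 listed genes 5 were tested, 4 were lower and 1 higher, with a median of -0.17 (-0.28 without control replicate 2, -0.11 without control replicate 3). Id3, which sequesters E proteins, read 1.68, 1.76 and 1.88 in controls and 0.65, 0.91 and 0.60 in knockouts. It fell by 1.05 (SE 0.16, adjusted p 0.0319), with no overlap. The call was lost in 4 of the 6 fits with an array left out, those without control replicate 2 or 3 or knockout replicate 1 or 3 (adjusted p up to 0.102). E protein genes did not pass: Tcf3 differed by -0.66 (adjusted p 0.266), Tcf4 by -0.17 (0.529) and Tcf12 by -0.14 (0.696). Id4 differed by 0.52 (SE 0.60). Id1 and Id2 had too few usable spots to be tested. Id1 read 0.20, -0.05 and 0.51 in controls and 1.73, 1.16 and 1.98 in knockouts, outlier spots included. Every knockout lay above every control at that probe.

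In a list of 50 other transcription factors of gut and body mesenchyme, 41 were tested. Of these 30 were lower and 11 higher, with a median of -0.44; 5 fell, 0 rose and 36 did not pass. Meox1, a homeobox factor of somites and activated fibroblasts, read 0.01, 0.90 and 0.54 in controls and -2.85, -1.42 and -1.45 in knockouts, a fall of -2.39 (SE 0.44, adjusted p 0.0429). Foxc2, a forkhead factor of mesenchyme and lymphatic valves, read -3.17, -2.34 and -2.95 against -4.76, -4.96 and -4.44, a fall of -1.90 (SE 0.26, adjusted p 0.0284). Tbx2, a T-box repressor, read -1.02, -0.56 and -0.97 against -2.92, -2.60 and -2.41, a fall of -1.79 (SE 0.21, adjusted p 0.0227). At these 3 genes no knockout reached a control. Nr2f1, an orphan nuclear receptor, fell by 1.50 (adjusted p 0.0444), also without overlap. Ebf1, needed for B cells and stromal cells alike, fell by 1.48 on 2 usable arrays a group (adjusted p 0.0487). With its outlier spots kept the groups overlapped and the difference was -0.72 (adjusted p 0.333). The number of calls in that list changed with the arrays and settings used. It was 0 without control replicate 2 or knockout replicate 3 and 1 without control replicate 3 or knockout replicate 1. Without control replicate 1 it was 4, and without knockout replicate 2 it was 5. On all arrays it was 8 under median centring, 9 under normexp with quantile normalization, 2 with no filter on dim probes and 15 with array weights.

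Foxl1, a hedgehog target of subepithelial telocytes, had the largest difference, -3.07 (SE 0.63), and missed the threshold (adjusted p 0.0509). It read -2.37, -1.89 and -2.20 in controls and -6.56, -5.26 and -3.85 in knockouts, with 2 of 3 knockout spots well above background. Of the 7 alternatives on all arrays 6 called it, and with an array left out none did. Runx1 (-1.51, adjusted p 0.0537) and the hedgehog effector Gli2 (-1.11, adjusted p 0.0649) did not pass either. The highest differences were those of Creb3l1 (1.02, adjusted p 0.0914) and Gata6 (0.92, adjusted p 0.194). Prrx2, the paralogue of Prrx1, showed the same disagreement between probes: its brighter probe differed by -0.37 (adjusted p 0.172), and the dimmer one (A_55_P2417569) fell by 2.42 (SE 0.31, adjusted p 0.0260), with 2 of 3 knockout spots well above background and its call lost in 3 of the 6 fits with an array left out (adjusted p up to 0.0764).

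**Figure D3:**
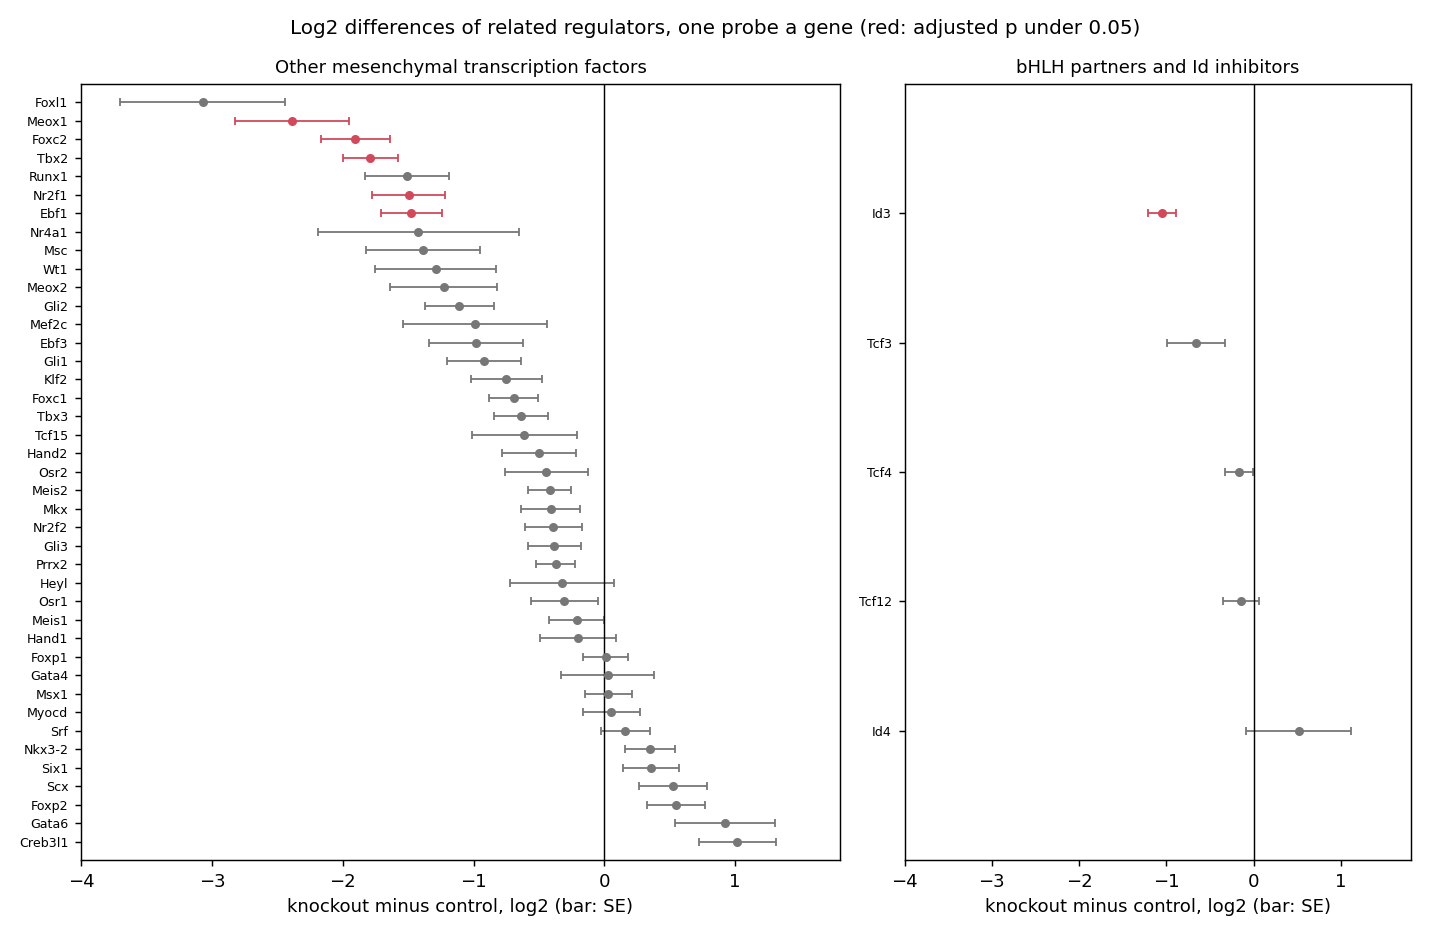
Knockout minus control on the log2 scale (horizontal axes; bars are SE) for 41 other mesenchymal transcription factors and for 5 bHLH partners and Id inhibitors, 1 probe a gene. Red marks an adjusted p under 0.05: Meox1, Foxc2, Tbx2, Nr2f1 and Ebf1 on the left and Id3 on the right, all lower in the knockout.

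Genes that EMT factors are known to favour were mostly lower. Of 32 listed genes 30 were tested, 27 were lower and 3 higher, with a median of -0.55 (-0.29 without knockout replicate 1); 5 fell and 0 rose. They were Lox, which crosslinks collagen (-3.16, SE 0.38, adjusted p 0.0236), the matrix proteases Mmp9 (-2.86, SE 0.56, adjusted p 0.0468), Mmp14 (-2.07, SE 0.25, adjusted p 0.0233) and Mmp2 (-1.99, SE 0.27, adjusted p 0.0335), and the PDGF receptor gene Pdgfrb (-1.17, SE 0.20, adjusted p 0.0395). The count was 0 without control replicate 2, control replicate 3 or knockout replicate 3, 3 without control replicate 1 or knockout replicate 1, 8 with array weights or median centring, 9 under normexp with quantile normalization and 2 with no filter on dim probes. Loxl2, a relative of Lox, did not pass (-1.66, adjusted p 0.0529). The mesenchymal cadherin gene Cdh2 differed by -0.46 (adjusted p 0.208) and fibronectin, Fn1, by -0.032 (SE 0.22, adjusted p 0.942). Of the 32 genes, 8 also stand in another list, and Mmp9 is a neutrophil marker as well.

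Epithelial genes that EMT factors are known to repress were mostly higher. Of 26 listed genes 23 were tested, 21 were higher and 2 lower, with a median of 1.404, yet at 1 probe a gene limma called 0 in either direction (0 to 17 by the alternatives on all arrays). At further, dimmer probes of these genes Marveld3 (2.20, adjusted p 0.0417), St14 (1.89, 0.0497), Patj (1.78, 0.0357) and Cgn (1.25, 0.0468) were called higher and Grhl2 lower (-1.94, 0.0159), while the brightest probe of each did not pass. All 5 of these calls were lost without control replicate 2 or 3 or knockout replicate 3 (adjusted p up to 0.119), and that of Cgn without any of the 6 arrays. Among the highest were Rab25 (2.42, SE 0.76, adjusted p 0.105), the polarity gene Crb3 (2.40, SE 0.72, adjusted p 0.0978) and the splicing regulator Esrp2 (2.38, SE 0.64, adjusted p 0.0794). The desmosomal gene Pkp3 came nearest to the threshold (1.397, SE 0.29, adjusted p 0.0505). The lower ones were Cldn1 (-0.70, adjusted p 0.0894) and Grhl1 (-0.54, adjusted p 0.167). Cdh1 and Epcam had too few usable spots to be tested in this fit. With outlier spots included Cdh1 read 1.94, -0.18 and 1.65 in controls and 2.72, 2.41 and 2.65 in knockouts. Epcam read 2.78, 1.52 and 2.60 against 3.42, 3.06 and 3.16. With array weights 17 passed, and without control replicate 1, 4 did. The summed signal of the tested genes was 22.9 to 64.1 in controls and 81.3 to 111 in knockouts, and their mean log2 signal was lowest in control replicate 2 (-1.48). Of the 26 genes, 3 (Cdh1, Krt8 and Epcam) also stand in the colon epithelium list. The mean of that list was lowest in control replicate 2 as well (0.23). Whether the factors bear on these genes was not tested.

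Markers of other cells also differed between the groups, most of them without passing the test, and their part in the differences above was not tested. All 8 tested markers of colon epithelium were higher, with a median of 1.08 (0.53 without control replicate 2). Their summed signal was 17.4 to 53.9 in controls and 59.4 to 77.8 in knockouts. Smooth muscle markers were higher at 8 of 8, with a median of 0.36. Their summed signal was 46.1 to 57.4 in controls and 61.9 to 72.9 in knockouts. The array's 75th percentile, the divisor, was 6353 to 7110.5 in controls and 4910.5 to 5820 in knockouts. An equal intensity therefore reads higher in a knockout, and the part of this in the smooth muscle difference was not tested. Neutrophil markers were lower at 8 of 10 (median -2.40, and -1.51 and -1.59 without control replicate 2 and 3; 28.6 to 29.9 and 18.8 to 20.6), with 7 called (0 without control replicate 2, 1 without control replicate 3 or knockout replicate 3, and 4 without knockout replicate 1). The 2 not lower, Trem1 (0.18) and Csf3r (0.17), had the brightest tested probes. In knockouts 1, 2 and 3 Trem1 read 3.31, 3.26 and 3.07 and Csf3r 3.31, 3.14 and 3.14. S100a9, the next brightest there, read -2.45, -0.97 and -0.60. The summed neutrophil signal in knockouts therefore came mostly from Trem1 and Csf3r and understates the fall of the others. A dimmer Trem1 probe (A_52_P415116) differed by -3.07 (SE 1.02, adjusted p 0.119, limma). Ly6g, of the same list, had too few usable spots to be tested in this fit. With outlier spots included it read 2.50, 1.69 and 2.43 in controls and 3.08, 2.82 and 3.06 in knockouts, so it was not lower either. Endothelial markers were lower at 9 of 9 (median -0.88, and -0.57 without knockout replicate 1; 16.2 to 17.5 and 6.19 to 11.965), macrophage markers at 8 of 8 (median -0.83; 15.7 to 22.5 and 8.84 to 14.4) and pericyte markers at 3 of 3 (median -0.56; 3.10 to 3.49 and 1.64 to 2.50). Enteric neuron and glia markers were lower at 8 of 8 (median -0.53; 15.1 to 17.0 and 11.4 to 13.7). B and plasma cell (8 of 8; median -0.71; 10.5 to 21.5 and 6.77 to 15.7), T cell (5 of 6; median -0.26; 4.01 to 7.77 and 3.85 to 6.69) and mesothelial markers (5 of 6; median -0.42; 1.93 to 2.30 and 0.82 to 2.26) were lower in most genes, with summed signals that overlapped between the groups. With an array left out these medians ran from -1.30 (without control replicate 1) to -0.28 (without knockout replicate 3) for B and plasma cells. They ran from -0.48 (without control replicate 1) to -0.0045 (without knockout replicate 3) for T cells and from -0.81 (without knockout replicate 3) to -0.14 (without knockout replicate 1) for mesothelium. In the B and plasma cell list Tnfrsf17, a receptor gene of plasma cells, fell by 1.58 (SE 0.31, adjusted p 0.0474), a call lost in 5 of the 6 fits with an array left out, all but that without knockout replicate 1 (adjusted p up to 0.135). Adipocyte markers (1 of 5 lower; median 0.28; 0.75 to 19.6 and 0.64 to 6.06) and skeletal muscle markers (2 of 10 lower; median 0.17; 4.94 to 6.002 and 5.53 to 7.76) overlapped too. Single arrays set the direction of the adipocyte median, which was 2.19 without control replicate 1 and -0.65 without control replicate 2, and below 0 also without control replicate 3 or knockout replicate 2 or 3. The skeletal muscle median ran from 0.09 (without knockout replicate 3) to 0.39 (without knockout replicate 1). Every listed marker that was on the array, except Ngp of the neutrophil list, had a probe well above background on at least 1 array.

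**Figure D4:**
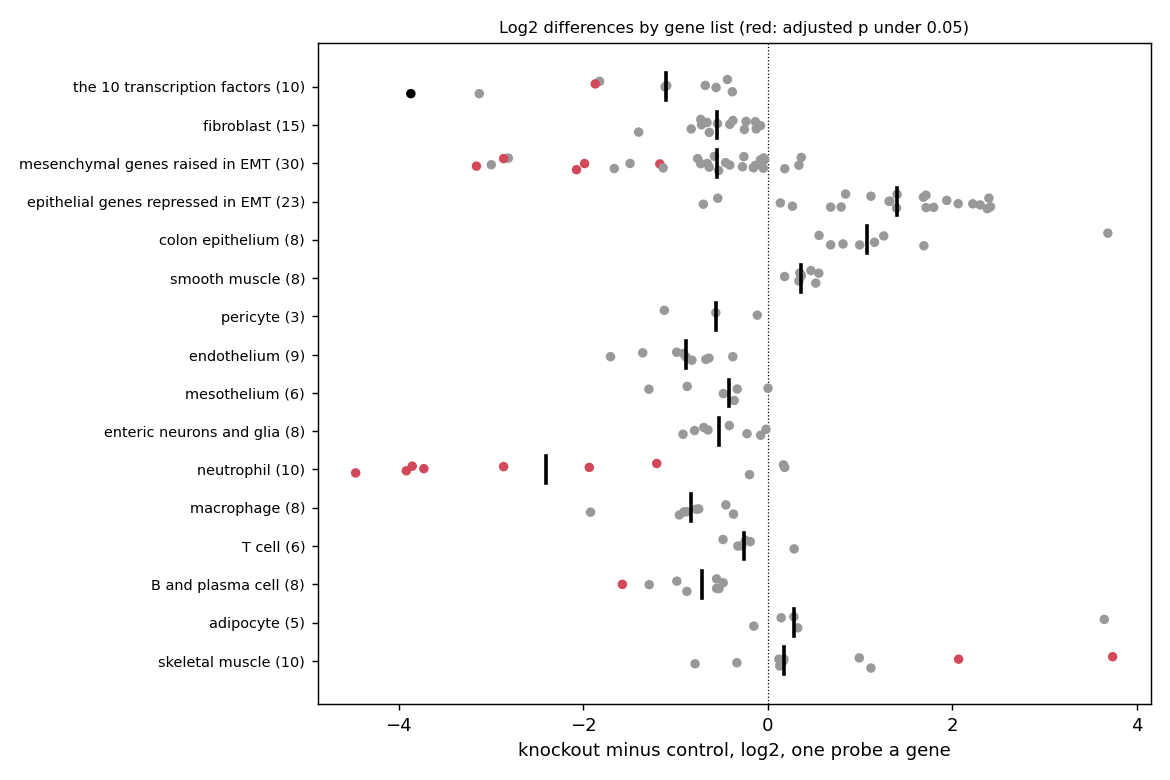
Knockout minus control on the log2 scale (horizontal axis) for each tested gene, 1 probe a gene, of the 10 transcription factors and of 15 lists; numbers in brackets are genes tested, bars are medians, red marks an adjusted p under 0.05 and black marks Twist2. The 10 factors have a median of -1.10, fibroblast genes -0.54, epithelial genes repressed in EMT 1.404 and neutrophil genes -2.40.

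The profiles nearest to that of Twist2 over the 6 arrays did not include those of its relatives. Named genes well above background in all controls were ranked by the root mean square difference from Twist2 after centring each on its control mean. This measure depends on the size of the fall as well as on its pattern, and the other 9 factors fell less than Twist2. Their absence from the nearest genes is therefore not read as a result. The nearest were S100a9, a neutrophil calcium-binding protein gene (0.38), Papln, a papilin of basement membranes (0.39), Ces1f, a carboxylesterase gene (0.42), Mmp8, the neutrophil collagenase gene (0.43), and Ptges, a prostaglandin E synthase gene (0.44). S100a9 went from 2.37, 2.39 and 2.41 in controls to -2.45, -0.97 and -0.60 in knockouts. Of the knockout arrays, none had a Papln spot well above background and 1 had a Ces1f spot so. Ptges probes disagreed: A_55_P1974189, the one near Twist2, differed by -3.46 and its brightest by 0.14 (adjusted p 0.594, limma). Another Ptges probe, A_51_P312327, was also lower, by -3.30 to -3.02 over the 7 alternatives on all arrays. The ranking itself fixes that the nearest probes are high in controls and low in knockouts.

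**Figure D5:**
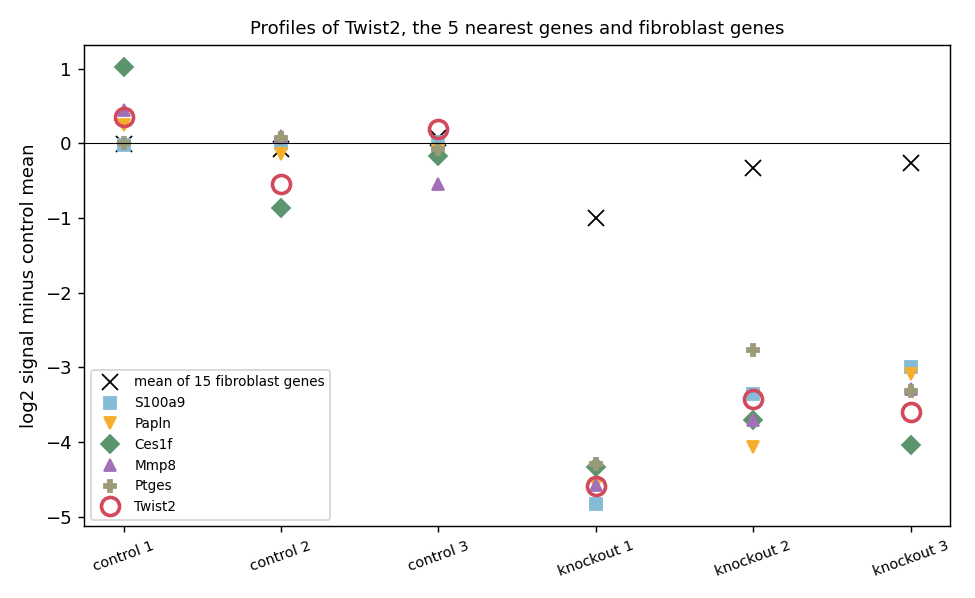
Log2 signal minus the control mean (vertical axis) on each of 6 arrays for Twist2 (red circles), the 5 genes with the nearest profiles and the mean of 15 fibroblast genes (crosses). In knockouts Twist2 and the 5 genes lie well below the fibroblast mean, which is itself lowest in knockout 1.

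Genes beside Twist2 in the annotation of GRCm38.p6 did not pass the test in this fit. Of the 5 genes on each side, Traf3ip1 and Asb1 before it and Hdac4 after it had tested probes. Traf3ip1, a ciliary transport gene, differed by -0.13 (SE 0.27, adjusted p 0.789). The 3 probes of Asb1 differed by -0.76 (A_55_P2482339, SE 0.17, adjusted p 0.0568), 0.15 and -0.0024; the first was called in 4 of the 7 alternatives on all arrays. At the tested probe of Hdac4, a histone deacetylase gene, the difference was -0.29 (SE 0.18, adjusted p 0.341). At Twist2 itself the difference was -3.87.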

How the data were processed

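Total RNA of each colon was extracted with TRIzol, amplified and labelled, per the labels' protocols. The deposited processed signal is a linear intensity after detrending and background subtraction within the array, per the file headers (Feature Extraction 11.5.1.1, design 074809; the submitters' processing notes name version 10.7). Labels name Cy3 and a green column, but the files hold the red channel, which was used. No spot was saturated.

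The 59305 spots that are not controls were converted to log2 and scaled to the array's 75th percentile. Spots flagged as non-uniform or population outliers (3.26% to 16% of an array) were left out, and spots of a probe averaged. Probes well above background on all arrays of a group, with 2 usable values in each group, were tested: 35351 of 56605. Limma 3.58.1 in R 4.3.3 (lmFit, eBayes; two-sided, Benjamini-Hochberg, 5% false discovery rate) compared genotypes; where an outlier spot was left out, the fit used fewer arrays. For 3 against 3 the smallest exact permutation p is 0.1, and the number of arrays limits the precision. Replicate numbers only name animals; nothing beyond the labels says how they were raised. The probe with the highest mean stood for a gene. "At least" folds divide the bright group's mean by a floor for the dim group: per array, the dimmest signal that was well above background, or the spot's own if that was higher. Probes were named through RefSeq accessions of GRCm38.p6 (59.7% matched); the files place probes on another build, mm9. The fit was tested on simulated data.

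The genes and lists were chosen with earlier results of these data known; the named ones were the 10 factors, Islr, called list members (at most 6 a direction), neighbours of Twist2 and the 5 profiles nearest to it, and uncalled genes of the lists were picked once their values were known. Alternatives were outlier spots kept, normexp (offset 50) with quantile normalization, quantile normalization, median centring, no filter on dim probes, array weights, the series' value table and each array left out.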

Additional observations from a re-analysis of the deposited data

How the results depend on the processing

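Every tested probe of the 10 factors was lower in the knockout under each alternative in which it could be tested. The calls were less stable. Over all probes 1403 were called, and 2768 under normexp with quantile normalization, 2185 under quantile normalization, 2249 under median centring, 484 with no filter on dim probes, 8119 with array weights and 2274 from the value table; with an array left out the count ran from 40 to 2114. Of the 10 factors, among which a call for Twist2 is no evidence because it was selected on this contrast, 2 were called, against 4 with outlier spots kept, 6 under normexp with quantile normalization, 4 under quantile normalization, 5 under median centring, 1 with no filter on dim probes, 6 with array weights and 5 from the value table, and 0 to 3 with an array left out, 0 of them without control replicate 3 or knockout replicate 3. Differences near 0 changed sign for Fn1 (0.014 under normexp with quantile normalization, 0.033 with array weights), for the brightest Ptges probe (-0.018 under normexp with quantile normalization, -0.025 under quantile normalization), for Traf3ip1 (-0.41 to 0.059 with an array left out, above 0 without control replicate 2) and for Id4 (-0.026 to 1.03, below 0 without control replicate 3). The cause of these shifts was not tested. No paired analysis was possible because the labels give no replicate numbers shared between the groups. Signals near background limit the sizes for Twist2, Snai1 and Prrx1, and 3 arrays a group limit every adjusted p.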

Other observations

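Grhl2, an epithelial transcription factor that opposes Zeb1, gave opposite readings at its pair of tested probes. The brighter probe (A_55_P1981322) was -1.10, -2.85 and -1.91 in controls and 0.55, -0.35 and 0.15 in knockouts, a difference of 2.07 (SE 0.46, adjusted p 0.0572, limma). The other (A_51_P408821) was -1.67, -1.39 and -1.30 in controls and -3.62, -3.27 and -3.29 in knockouts, a fall of -1.94 (SE 0.18, adjusted p 0.0159). The groups were separate at both probes. The fall at the second probe was not called without control replicate 2, control replicate 3 or knockout replicate 3.

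Skeletal muscle myosin genes, the motors of fast muscle fibres, rose at their brightest probes. Myh2 (A_51_P225134) was well above background on no control and on all 3 knockout arrays, at least 4.61-fold higher. Myh1 rose by 2.07 (SE 0.19, adjusted p 0.0160, limma). The other 8 tested genes of that list did not pass. Only the bound holds for Myh2, whose control spots were at background. Myh1 lost its call without control replicate 3 or knockout replicate 3.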
